A study of Homo sapiens with 5 samples.

Results

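The fibrillar collagen genes examined here were COL1A1, COL1A2, COL2A1, COL3A1, COL5A1, COL5A2, COL5A3, COL11A1, COL11A2 and COL24A1, 10 of the 20007 protein-coding genes of GENCODE release 44. They were taken as a list by name, and all 10 symbols were found in the annotation. A TEAD4 peak was assigned to a gene when its summit, the position of highest signal within the peak, lay in the gene body or within 50 kb of any transcription start site (TSS) of the gene. By this rule 46 of the 21113 TEAD4 peaks belonged to the fibrillar collagen genes, and 1 of the 46 lay in the windows of both COL3A1 and COL5A2.

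TEAD4 binding was mapped by chromatin immunoprecipitation with sequencing (ChIP-seq) in LX-2 cells, an established human hepatic stellate cell line used as a model of myofibroblastic hepatic stellate cells (MF-HSCs). All 3 TEAD4 samples and both input samples came from cells given the solvent DMSO, so there was 1 condition and nothing to compare it with. Of the TEAD4 replicates, the paper kept 1 and 3 because only these were concordant enough. The peak list used here combines this pair, holds 1 value per peak and none per replicate, and comes from a single cell line. Neither a spread between replicates nor a test over samples could therefore be given, gene expression was not measured in these data, and the cell type could not be checked against marker expression.

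Fibrillar collagens are secreted as procollagens whose chains wind into long triple helices and, once their ends are removed, pack side by side into the fibrils that give tissue its tensile strength. The COL1A1 and COL1A2 chains form type I collagen and COL3A1 chains form type III collagen, the main fibrils of scar tissue, which MF-HSCs deposit in the injured liver. Type V chains start and limit the growth of type I fibrils, while types II and XI are best known from cartilage. TEAD factors bind DNA at the letters ACATTCC and act through coactivators such as YAP1. AP-1 dimers of FOS and JUN proteins, which bind TGACTCA or its reverse complement, often occupy the same enhancers.

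Both strands were searched for the TEAD motif ACATTCC up to 100 bp to either side of each summit, and 10 of the 46 peaks held it. The sequences around the summits of 9 of these peaks are given first, because they show where the motif sat in each gene's window. All sequences are hg38, 5′ to 3′, on the strand named, with the summit at the central base and with TEAD and AP-1 motifs in capitals.
COL1A1 upstream peak, chr17:50209634-50209694, minus strand: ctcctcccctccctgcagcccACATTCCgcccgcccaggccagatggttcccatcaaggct
COL1A1 second upstream peak, chr17:50210506-50210566, minus strand: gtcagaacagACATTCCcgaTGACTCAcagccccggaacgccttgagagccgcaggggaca
COL1A1 downstream peak, chr17:50178510-50178570, plus strand: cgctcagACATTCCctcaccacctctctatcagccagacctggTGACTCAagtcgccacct
COL5A1 peak in intron 1, chr9:134670272-134670362, plus strand: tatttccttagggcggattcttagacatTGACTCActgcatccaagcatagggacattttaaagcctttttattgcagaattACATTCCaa
COL5A2 peak in intron 1, chr2:189130083-189130143, plus strand: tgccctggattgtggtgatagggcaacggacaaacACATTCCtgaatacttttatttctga
COL5A2 another peak in intron 1, chr2:189150084-189150144, plus strand: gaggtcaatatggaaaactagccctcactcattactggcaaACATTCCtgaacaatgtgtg
COL5A3 peak in intron 1, chr19:10008989-10009149, plus strand: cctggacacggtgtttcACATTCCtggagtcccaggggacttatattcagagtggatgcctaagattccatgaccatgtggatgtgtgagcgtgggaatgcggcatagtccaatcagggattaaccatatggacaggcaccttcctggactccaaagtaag
COL2A1 upstream peak, chr12:48022028-48022088, minus strand: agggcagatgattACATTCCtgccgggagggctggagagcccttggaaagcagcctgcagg
COL24A1 peak in intron 37, chr1:85850255-85850315, plus strand: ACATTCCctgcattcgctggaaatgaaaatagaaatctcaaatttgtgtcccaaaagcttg
In the second COL1A1 upstream peak only 3 bases separated the TEAD motif from the AP-1 motif, whereas 29 bases separated them in the COL1A1 downstream peak and 47 in the COL5A1 peak. These were the 3 peaks that held both motifs (6.52% of the 46), beside 4.49% of the list. The motif centre lay 6 bp from the summit in the first COL1A1 upstream peak and 60 bp from it in the COL5A3 peak, the nearest and the farthest of the 10.

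AP-1 motifs without a TEAD motif were found in 8 further peaks, of which 3 are shown because they include the strongest COL1A1 peak and both peaks of COL3A1.
COL1A1 strongest peak, chr17:50218882-50218942, plus strand: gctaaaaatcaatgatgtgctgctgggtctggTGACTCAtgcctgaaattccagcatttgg
COL3A1 peak in intron 1, chr2:188979507-188979627, plus strand: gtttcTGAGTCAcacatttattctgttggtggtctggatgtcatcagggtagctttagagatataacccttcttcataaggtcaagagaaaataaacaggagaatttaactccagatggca
COL3A1 and COL5A2, shared peak, chr2:189018742-189018802, plus strand: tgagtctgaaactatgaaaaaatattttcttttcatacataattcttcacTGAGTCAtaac
The other 28 peaks held neither motif within 100 bp of the summit (60.9%), beside 56.1% of the list. The strongest COL5A2 and COL2A1 peaks and the promoter peak of COL1A2 were among them, as the following sequences show.
COL5A2 strongest peak, intron 6, chr2:189096967-189097027, plus strand: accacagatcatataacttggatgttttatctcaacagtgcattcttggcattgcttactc
COL1A2 peak nearest the TSS, chr7:94394608-94394668, plus strand: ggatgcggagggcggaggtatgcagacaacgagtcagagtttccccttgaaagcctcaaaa
COL2A1 strongest peak, chr12:47935257-47935317, plus strand: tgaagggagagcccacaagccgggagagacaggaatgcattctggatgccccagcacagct

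Each of the 10 fibrillar collagen genes had at least 1 TEAD4 peak in its window, as did 56.2% of all protein-coding genes. At least 5 peaks were found at 5 of the 10, namely COL5A2 with 13, COL1A1 with 8, COL1A2 and COL5A1 with 6 each and COL2A1 with 5, against 7.2% of all protein-coding genes. The COL2A1 count fell to 2 when 1 TSS per gene was used. COL5A3 had 3 peaks, COL3A1 and COL11A2 had 2 each, and COL11A1 and COL24A1 had 1 each. The median was 4 peaks per fibrillar collagen gene and 1 per protein-coding gene. A gene with a long body has a wide window, so counts were also expressed per 100 kb. On that scale COL1A1 was the densest with 6.99 peaks per 100 kb, followed by COL5A2 with 4.96, COL1A2 with 4.53 and COL2A1 with 3.93. The median of the 10 genes was 2.12 peaks per 100 kb (95% order-statistic interval 0.30 to 4.96) and that of all protein-coding genes was 0.667. COL11A1, at 0.304, and COL24A1, at 0.195, were the 2 genes below this median, and each has a single peak in a gene body of 232.4 and 427.7 kb, respectively. Of all protein-coding genes, 0.495% had at least as many peaks as COL5A2 and 0.420% were at least as dense as COL1A1.

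**Figure D1:**
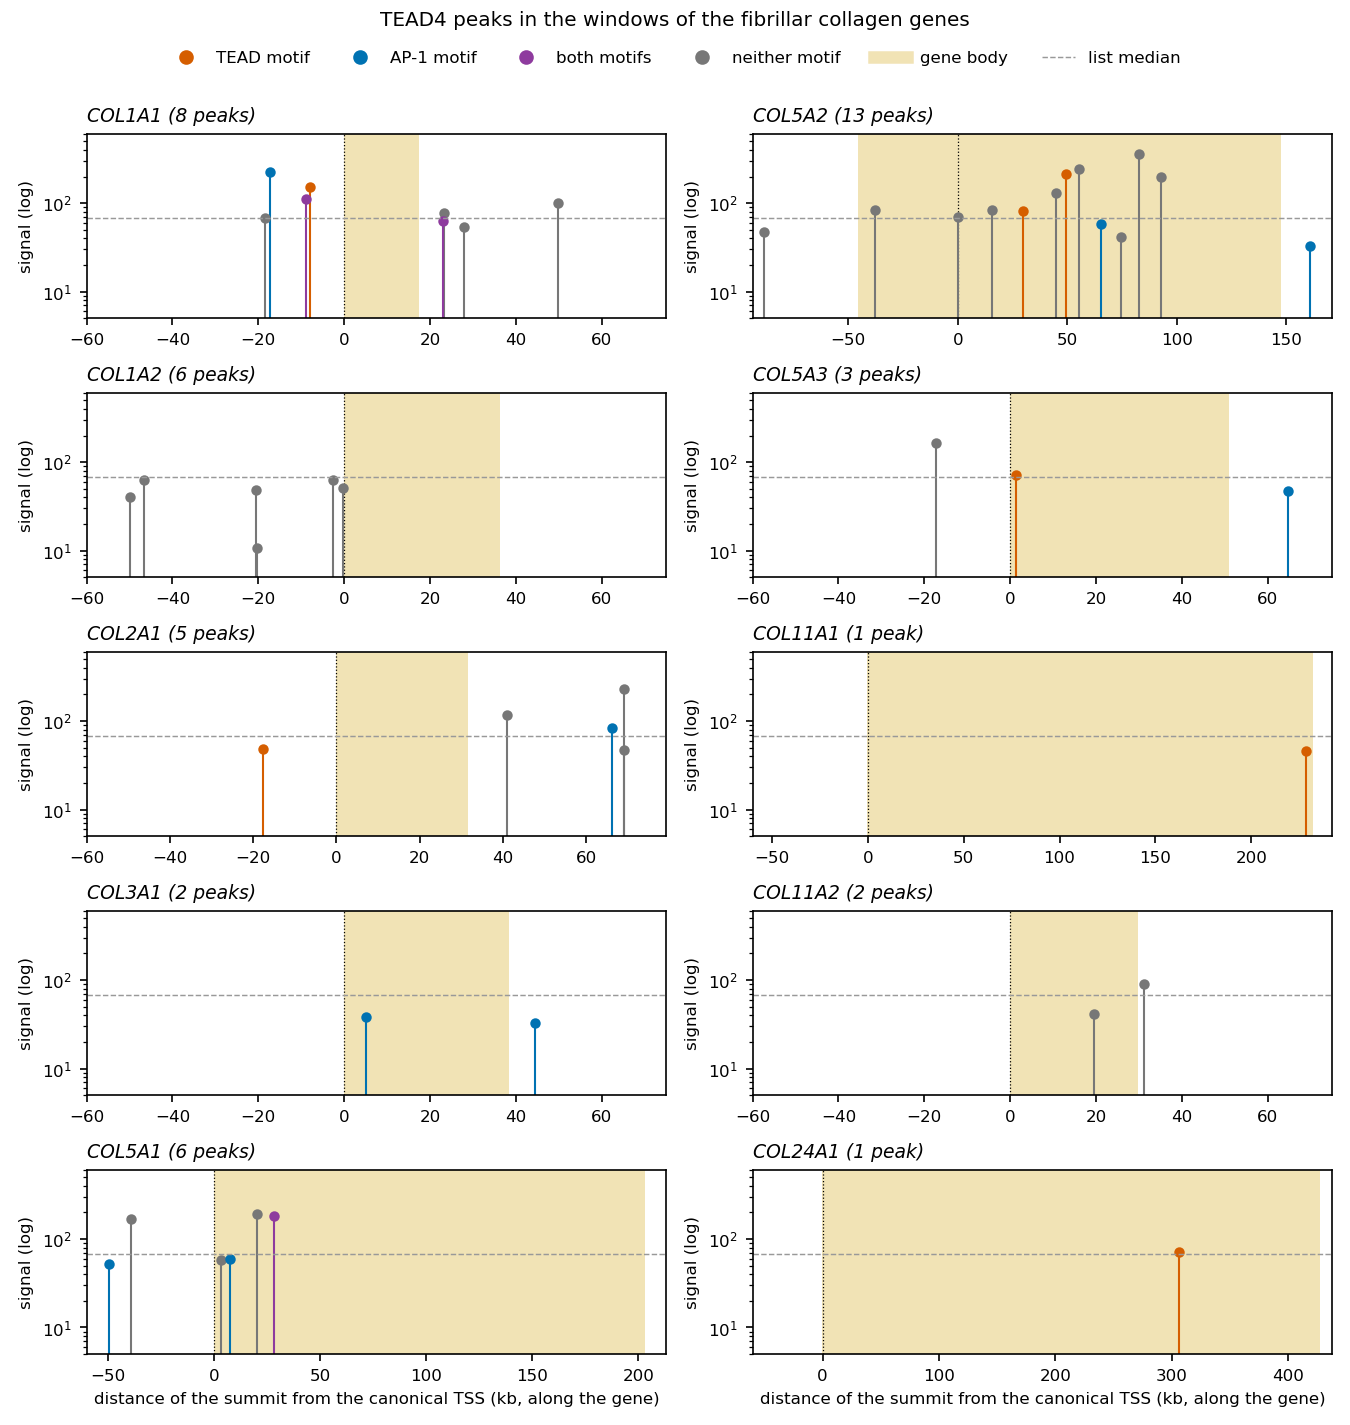
Position (x axis, kb from the canonical TSS along the gene) and signal value (y axis, log scale) of every TEAD4 peak in the windows of the 10 fibrillar collagen genes, coloured by motif, with the gene body shaded and the median signal of the whole list dashed. The body of COL5A2 holds 11 peaks, whereas those of COL1A1, COL1A2 and COL2A1 hold none.

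The signal value is the peak caller's measure of enrichment, and its scale was not given in the sources used here, so it served to rank peaks within the list. The 46 peaks had a median signal of 70.7 (95% order-statistic interval 57.6 to 91.0) and ranged from 10.7 to 356.9, beside a median of 68.1 over the list. Of the 46, 25 were above the list median (54.3%, Wilson 95% interval 40.2 to 67.8) and 6 were in its top 10% (13.0%, 6.12 to 25.7). The intervals include the shares of the list itself, and they cover counting error only. The 6 strongest peaks were 4 in introns of COL5A2, with signals of 356.9, 241.4, 216.0 and 200.2, 1 downstream of COL2A1 at 230.4 and 1 upstream of COL1A1 at 226.1. Thus 3 of the 10 genes had a peak in the top 10%, against 11.4% of all protein-coding genes. The COL2A1 peak among them lay inside VDR, 69189 bp from the canonical TSS of COL2A1. The highest IDR score of 1000 was given to 38 of the 46 peaks (82.6%), beside 76.1% of the list. The other 8 scored 833 or more. IDR, the irreproducible discovery rate, measures how well peak ranks repeat between replicates. Every peak of the list had already passed an IDR cutoff, so a score of 833 or more does not set these peaks apart. One peak, upstream of COL1A2, had a q-value of 0.301 and the lowest signal of 10.7. The other 45 had the largest −log10 q-value of the list, 4.76. Peaks with signals from 32.6 to 356.9 shared this value, so it does not rank them. The share of the whole list at this value is not given here.

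**Figure D2:**
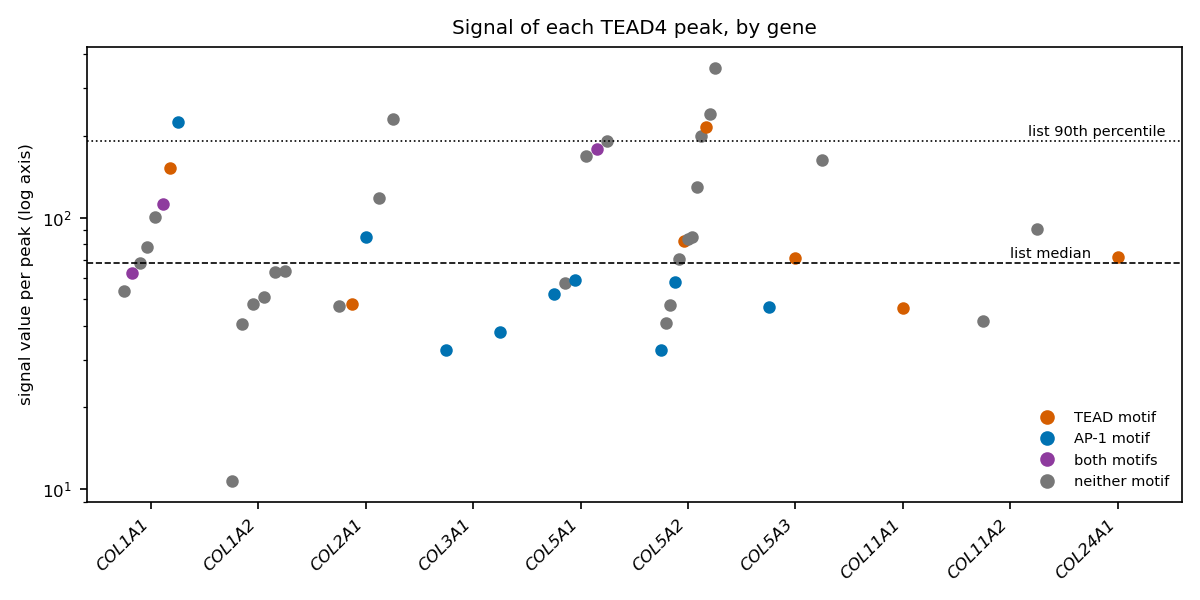
Signal value of each TEAD4 peak (y axis, log scale) for each fibrillar collagen gene (x axis), 1 point per peak, coloured by motif, with the list's median (68.1) and 90th percentile (191.9) as lines. Points are spread sideways by rank only; the 6 peaks of COL1A2 all lie below the median, and 4 peaks of COL5A2 lie above the 90th percentile.

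Both genes of type I collagen carried their peaks outside the gene body, but they differed in layout. COL1A1 (chromosome 17, 50184101 to 50201632, minus strand) had 4 peaks upstream and 4 downstream and none within 2.5 kb of a TSS. The nearest summit lay 8032 bp upstream of a TSS, in an intron of the long non-coding RNA (lncRNA) gene ENSG00000249406, with a signal of 152.2. A second peak 872 bp further upstream, with a signal of 112.3, had its summit in an exon of that lncRNA. These are the first and second upstream peaks shown above, and both held the TEAD motif. The strongest COL1A1 peak, 17280 bp upstream, had a signal of 226.1 and ranked 1488 of 21113, with an AP-1 motif 5 bp from its summit and no TEAD motif. A weaker peak of 68.3 followed at 18458 bp. Downstream of COL1A1 the summits were closer to other genes than to COL1A1. One peak of 100.4 lay 1129 bp from a TSS of PPP1R9B, which encodes the cytoskeletal scaffold spinophilin. The other 3, with signals of 53.6, 78.0 and 62.6, had SGCA, which encodes a sarcoglycan of muscle, as the nearest coding gene. All 8 COL1A1 peaks also lay in the window of SGCA, so the assignment to COL1A1 is by distance alone and target genes were not tested.

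COL1A2 (chromosome 7, 94394895 to 94431227, plus strand) had 6 peaks, all upstream. The nearest lay 257 bp before the TSS with a signal of 50.9, and the next 2608 bp before it with a signal of 63.4, the strongest of the gene. The other 4 formed pairs, at 20369 and 20571 bp with signals of 10.7 and 48.3, and at 46680 and 49819 bp with signals of 62.9 and 40.6. None of the 6 exceeded the list median and none held a TEAD or AP-1 motif within 100 bp of the summit. The 6 summits fell inside the span of the lncRNA gene ENSG00000285090 and in the window of no other protein-coding gene. COL1A1 thus had 6 of 8 peaks above the list median and COL1A2 had 0 of 6.

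COL3A1 and COL5A2 are neighbours on chromosome 2 and point at each other, with their 3′ ends 19151 bp apart. COL3A1 (188974373 to 189012746, plus strand), which encodes the chain of type III collagen, had 2 peaks. One had a signal of 37.96 in intron 1, 5173 bp from a TSS, and the other, 6026 bp past the 3′ end, had a signal of 32.6. The second is the peak that COL3A1 shares with COL5A2, and it lay 13126 bp past the 3′ end of COL5A2. Both COL3A1 peaks held an AP-1 motif, ranked low in the list, at percentiles 13.5 and 7.91 of signal, and had IDR scores of 905 and 834. The next peak of the list on that side lay 125364 bp before the COL3A1 5′ end. Of the 14 peaks in the windows of the pair, 12 were in that of COL5A2 alone.

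COL5A2 (189031898 to 189225312, minus strand) encodes a chain of type V collagen. A peak with a signal of 70.2 covered its canonical TSS, with the summit 41 bp upstream. Intron 1 held 6 peaks with signals of 84.6, 82.2, 129.7, 216.0, 241.4 and 57.7 in the direction of transcription, at 15674 to 65615 bp from the canonical TSS. The peaks of 82.2 and 216.0 had the TEAD motif and the peak of 57.7 the AP-1 motif. Further in, intron 2 held a peak of 41.0, intron 6 the strongest of all 46 at 356.9 (rank 435 of 21113) and intron 8 one of 200.2. Another peak of 83.5 lay 37961 bp upstream of the canonical TSS, between it and the start of a longer transcript, and 1 of 47.7 lay 43134 bp upstream of the gene's 5′ end. In all, 9 of the 11 peaks in the gene body were above the list median, while the 2 flanking peaks were below it. Over the 14 peaks of the pair, neighbouring summits were 4602 to 68047 bp apart with a median of 13973 bp. The COL5A2 peaks were therefore separate regions rather than split summits of 1 region.

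**Figure D3:**
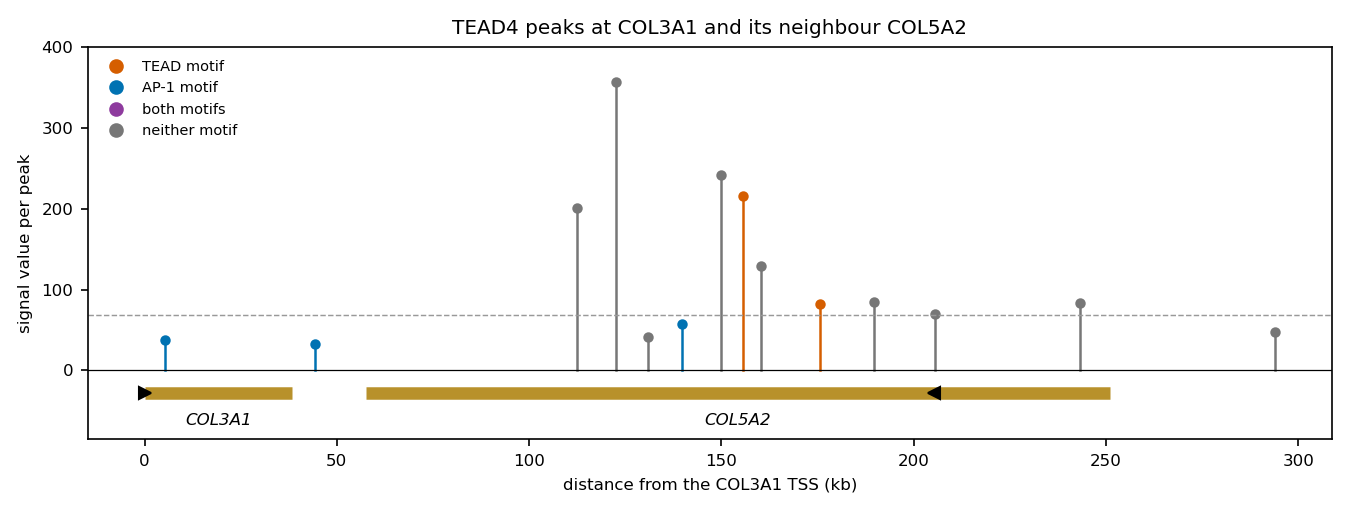
TEAD4 peaks across the neighbouring genes COL3A1 and COL5A2, by distance from the COL3A1 TSS in kb (x axis) and signal value (y axis), with gene bodies as bars, arrowheads at the canonical TSSs and the list median (68.1) dashed. The peaks at COL3A1 and between the genes stay at 37.96 or lower, and the strongest peak, 356.9, stands in the body of COL5A2.

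COL5A1 and COL5A3 encode the other type V chains. COL5A1 (chromosome 9, 134641803 to 134844843, plus strand) had 4 peaks in intron 1 of 65 introns and 2 upstream. From the TSS inwards the intronic summits lay at 3242, 7508, 20508 and 28514 bp, with signals of 57.6, 59.1, 191.8 and 179.8. The peaks deeper in the intron were thus the stronger ones, and the peak of 191.8 was just under the 90th percentile of the list. The peak of 179.8 held the TEAD and AP-1 motifs shown above. Upstream, the peaks lay at 38991 bp with a signal of 168.7 and at 49257 bp with a signal of 52.4. No other protein-coding gene had these 6 peaks in its window. COL5A3 (chromosome 19, 9959561 to 10010504, minus strand) had a peak of 71.1 with a TEAD motif in intron 1, 1435 bp from the TSS. A stronger one of 163.3, 17312 bp upstream, lay nearer to RDH8, a retinol dehydrogenase gene. The third, of 46.8, lay 13890 bp past the 3′ end and nearer to OLFM2. It was 64833 bp from the canonical TSS, and only 2 COL5A3 peaks remained when 1 TSS per gene was used.

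The genes of the cartilage collagens had 8 peaks in all. COL2A1 (chromosome 12, 47972967 to 48004554, minus strand), the gene of type II collagen, had 5 peaks, of which 4 lay beyond its 3′ end. There, 3 were inside VDR, the vitamin D receptor gene, with signals of 230.4, 47.2 and 84.6, and 1 of 118.3 was 4 bp from the TSS of TMEM106C. These 4 were 40888 to 69189 bp from the canonical TSS of COL2A1. Only 2 of the 5 peaks remained when 1 TSS per gene was used, because the VDR peaks came within 50 kb only of start sites annotated further along COL2A1. The remaining COL2A1 peak, 17504 bp upstream with a signal of 48.1, held the TEAD motif. COL11A1 (chromosome 1, 102876467 to 103108872, minus strand) had 1 peak with a signal of 46.4 and a TEAD motif, in exon 66 of 67. It lay 188 bp from a TSS of a short transcript but 228692 bp from the canonical TSS. COL11A2 (chromosome 6, 33162681 to 33192499, minus strand) had a peak of 91.0 that lay 1475 bp past its 3′ end and one of 41.7 in intron 38 of 65. Their summits were 6308 and 5076 bp from the nearest annotated TSS of COL11A2 but 31261 and 19650 bp from its canonical TSS. Both also lay in the windows of RXRB, SLC39A7, HSD17B8 and RING1.

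COL24A1 (chromosome 1, 85729233 to 86156943, minus strand), which encodes a minor fibrillar collagen, has the longest body of the 10 genes at 427.7 kb. Its 1 peak, with a signal of 71.9 and a TEAD motif, lay in intron 37 of 59 and 105536 bp from the nearest TSS of the gene. It belonged to COL24A1 only through the gene body and would not have been assigned by distance to a TSS.

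Over the 47 pairs of a gene and a peak, 20 peaks were in the gene body (42.6%), 15 upstream (31.9%) and 12 downstream (25.5%), beside 41.6%, 35.3% and 23.1% for all protein-coding genes. Of the 46 peaks, 4 (8.70%, Wilson 95% interval 3.43 to 20.3) were within 2.5 kb of a TSS of their own fibrillar collagen gene. These 4 belonged to COL1A2, COL5A2, COL5A3 and COL11A1, so 4 of 10 genes had such a peak, against 16.7% of all protein-coding genes. The COL11A1 peak was the one at the internal TSS near the 3′ end, which leaves 3 near a canonical TSS. Of the peaks in windows of protein-coding genes, 24.8% were within 2.5 kb of a TSS of any gene whose window held them. That measure is wider than the 8.70%, so the 2 shares are not directly comparable. By it, the COL1A1 peaks 1129 bp from PPP1R9B and 1356 bp from SGCA and the COL2A1 peak 4 bp from TMEM106C would also count. The median distance from a summit to the nearest TSS of its gene was 17408 bp, and 30 of the 46 were over 10 kb away. Distances count every annotated transcript start, and for 28 peaks the nearest start was not the one at the gene's 5′ end. Matching distances over all protein-coding genes are not given here, and the window rule itself admits summits far from a TSS.

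The member was the nearest protein-coding gene for 36 of the 46 peaks. For the other 10, the nearest TSS belonged to SGCA or PPP1R9B at COL1A1, VDR or TMEM106C at COL2A1, and OLFM2 or RDH8 at COL5A3. In all, 18 peaks also lay in the window of a protein-coding gene outside the list, while 28 lay in windows of fibrillar collagens alone, among them all those of COL1A2, COL5A1 and COL5A2. Shares over all protein-coding genes are not given for these counts, so they do not mark a link to the collagen genes. Within 1 kb of another summit of the list were 8 of the 46 peaks (17.4%), near the 20.1% of all peaks. Merging overlapping peaks left 43 regions.

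The TEAD motif thus occurred in 21.7% of the peaks (10 of 46, Wilson 95% interval 12.3 to 35.6), near the 22.97% of the whole list. In windows of the same width centred 2000 bp to either side of the 46 summits it was 2.17% (2 of 92). The AP-1 motif had a like pattern, with 23.9% (11 of 46, 13.9 to 37.9) beside 25.4% of the list and 2.17% of the flanking windows. Among fibrillar collagens, 7 of 10 genes had a peak with the TEAD motif, against 24.2% of all protein-coding genes, and the 3 without one were COL1A2, COL3A1 and COL11A2. COL1A1 led with 3 such peaks and COL5A2 had 2. Allowing a G for the first A of the TEAD motif (GCATTCC) raised the number of peaks to 16 (34.8%), beside 38.9% of the list. Among the added peaks were the strongest COL1A2 peak, 2608 bp before the TSS, the strongest COL2A1 peak and the COL11A2 peak in intron 38. Of the other motifs searched on both strands, the E-box CAGATG was in 19.6% of the 46 peaks, 16.7% of the list and 14.1% of the flanks, and the RUNX motif TGTGGTT was in 15.2%, 9.54% and 4.35%. CCTTACA, the TEAD letters in reverse order and searched as a control of composition, was in 2.17%, 1.99% and 4.35%. A match of letters is a description and not a measured site.

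**Figure D4:**
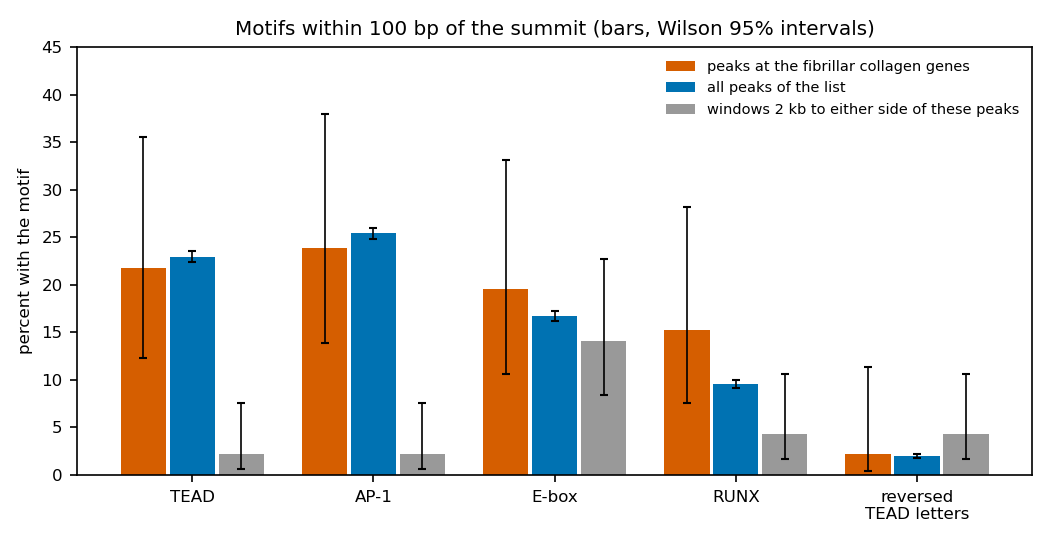
Percent of windows of 100 bp to either side of a summit that hold each motif (y axis), with Wilson 95% intervals, for the 46 peaks at the fibrillar collagen genes, all 21113 peaks and 92 windows 2 kb to either side of the 46 peaks. The TEAD and AP-1 bars of the 46 peaks (21.7% and 23.9%) are near those of the list and above those of the flanking windows (2.17% each).

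Peaks with the TEAD motif had a somewhat higher median signal, a difference that was not tested. The 10 peaks with it had a median of 77.0 and a range of 46.4 to 216.0, and the other 36 had a median of 65.9. Over the list the medians were 82.2 and 64.6. Of the 6 strongest peaks, 5 lacked these letters, as did 36 of all 46 peaks. Peak width was linked to signal in the same way here as in the list. The 27 peaks of the most common width, 444 bp, had a median signal of 52.4 and the 19 narrower ones 163.3, compared with 51.0 and 131.6 in the list. GC content within 100 bp of the summit had a median of 47.5% (list 44.8%) and ran from 29.9% at COL1A2 to 71.6% at COL5A3.

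Other genes of the collagen pathway were described by the same rule. Of the 34 other collagen genes, taken as the remaining protein-coding genes with a collagen chain symbol, 22 had a TEAD4 peak (64.7%, Wilson 95% interval 47.9 to 78.5) and 12 had none. Their median was 1.5 peaks per gene and 0.582 per 100 kb, beside 4 and 2.12 for the fibrillar genes. Single genes had as many as the fibrillar ones, with 14 peaks at COL15A1 (7.16 per 100 kb), 13 at COL4A2 and 12 at COL4A1, the last pair being the genes of basement membrane type IV collagen. The strongest COL4A2 peak had a signal of 598.1, above the 356.9 of COL5A2. COL27A1, a fibrillar collagen gene that was not among the 10 and is counted here, had 5 peaks, the strongest with a signal of 136.8 and a TEAD motif. Of 34 genes whose products fold, modify, secrete, trim or cross-link procollagen, 24 had a peak (70.6%, 53.8 to 83.2), with a median of 0.991 per 100 kb. Here 16 of 34 had a peak within 2.5 kb of a TSS, compared with 4 of the 10 fibrillar genes. The strongest were at TLL1, which encodes a procollagen C-proteinase, at 429.0, at P3H2, a prolyl 3-hydroxylase gene, at 422.0, and at PLOD2, a lysyl hydroxylase gene, at 272.1. These differences between lists were not tested, and genes within a list share peaks.

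**Figure D5:**
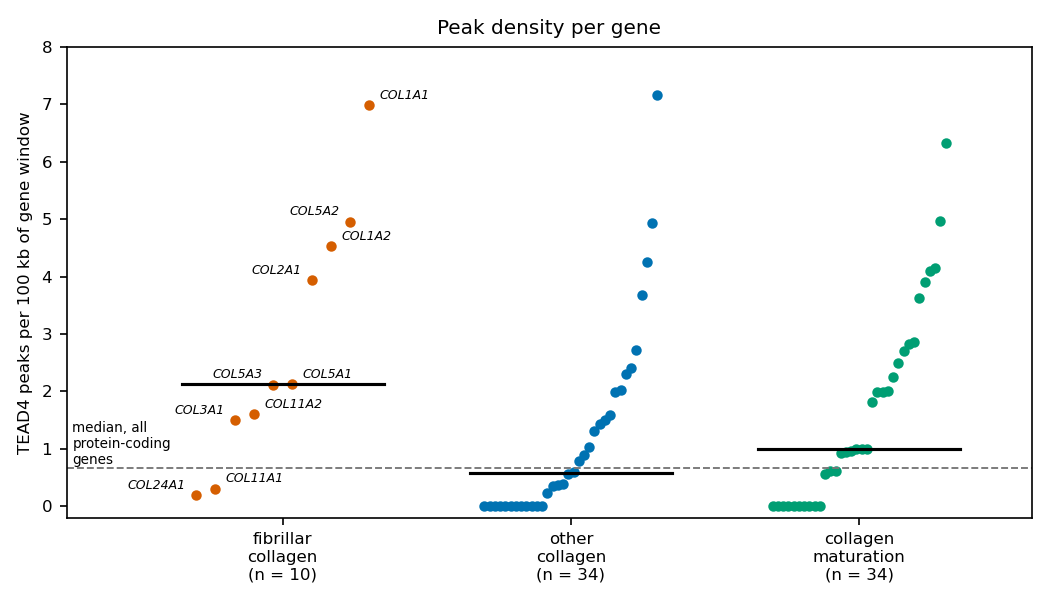
TEAD4 peaks per 100 kb of gene window (y axis) for each fibrillar collagen gene, other collagen gene and collagen maturation gene (x axis, 1 point per gene, ordered by value), with a bar at each group's median and the median of all protein-coding genes dashed at 0.667. The medians are 2.12, 0.582 and 0.991, the groups overlap, and COL11A1 and COL24A1 lie below the dashed line.

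The limit of 50 kb cut through few peaks. The members just inside it were the COL1A2 peak at 49819 bp (signal 40.6) and the COL5A1 peak at 49257 bp (52.4). The nearest peaks just outside it were 51283 bp from COL5A2 (80.4) and 56671 bp from COL11A2 (48.7).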

How the data were processed

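TEAD4 ChIP-seq was made by the authors from 3 samples of LX-2 cells given DMSO, with 2 input samples. They mapped reads to hg38 with Chromap 0.1.3-R256 and compared replicates with the ENCODE IDR pipeline 2.2.1. These steps are given in the paper's methods and the submitters' processing notes. Replicate 2 was left out because, per the paper, IDR found only replicates 1 and 3 concordant enough. IDR was then run again on that pair, so the IDR scores describe replicates kept for their agreement. The peak caller is not given in the sources used here. The deposited list holds, for replicates 1 and 3 together, a scaled IDR score, a signal value and a −log10 q-value per peak, all as the authors computed them. The meanings of these columns were read from the layout and values. The list has no values per sample, so depth per sample is unknown and no SD or test over samples was computed.

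Summits (start plus offset) were read as 1-based hg38 positions and assigned to genes with GENCODE release 44. Motifs were searched within 100 bp of the summit. Shares carry Wilson 95% intervals and medians order-statistic intervals, which cover counting error only; neighbouring peaks are not independent. For each member the text names the peak nearest a TSS, the strongest peak and the other peaks' values, and the other genes named are those whose window or TSS was nearest, or the list genes with the most or strongest peaks. The members and gene lists were chosen with earlier results of these data known. The code was tested on simulated data. Alternatives changed the window, the TSS annotation, the position of the peak, the set of peaks, and the motif and its window. Python 3.11.15, pysam 0.24.0, pandas 2.3.3, scipy 1.17.1, matplotlib 3.10.9 and numpy 2.4.6 were used.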

Additional observations from a re-analysis of the deposited data

How the results depend on the processing

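Of 84 alternatives to the 7 summary results, 79 left a count within 1.5 times, or another value within the interval of the value reported, and 5 did not. The number of TEAD4 peaks at the fibrillar collagen genes was 46, and it was 27 within 10 kb of a TSS or in the gene body, 20 in the gene body alone and 25 among peaks above the median signal of the list. The median signal was 118.3 among peaks above that median, and 34.8% of the peaks were within 10 kb of a TSS compared with 8.70% within 2.5 kb. These moves follow from the narrower, wider or filtered sets themselves. Inside their wide intervals, some values also changed by over 1.5 times. The median of 2.12 peaks per 100 kb was 0.93 above the median signal and 1.197 in gene bodies alone. The 8.70% within 2.5 kb was 4.76% with 1 TSS per gene, 14.8% with windows of 10 kb and 15% in gene bodies alone. The 21.7% with a TEAD motif was 33.3% with windows of 10 kb and 34.8% when GCATTCC was allowed. Of 110 alternatives to the peak counts of single genes, 26 moved the count by over 1.5 times. With the gene body alone COL1A1, COL1A2 and COL2A1 had 0 peaks, and with the highest IDR score alone COL3A1 and COL11A1 had 0. Above the median signal COL1A2, COL3A1 and COL11A1 had 0, within 10 kb COL2A1 had 0, and without the gene body COL24A1 had 0. The count at COL5A2 did not move by that much under any alternative run. No paired analysis was possible because replicates 1 and 3 share a single value per peak and no result came from a test, and for the same reason no replicate could be left out in turn.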

Other observations

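Intron 1 was looked at after the values had been seen. Of the 20 TEAD4 peaks in bodies of fibrillar collagen genes, 12 lay in intron 1 of the canonical transcript (60%, Wilson 95% interval 38.7 to 78.1), 6 of them in COL5A2, 4 in COL5A1 and 1 each in COL3A1 and COL5A3. Over all protein-coding genes 27.6% of body peaks (3314 of 11987) lay in intron 1. Intron 1 makes up 14.1% of the summed body length of the 10 genes and 20.1% over all protein-coding genes. This gave 6.74 peaks per 100 kb in intron 1 of the fibrillar collagen genes and 0.739 in the rest of their bodies. Without COL5A2, 6 of 9 body peaks were in intron 1 (66.7%, 35.4 to 87.9). Peaks of 1 gene are not independent, and the pattern was not tested.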
